A study of Mus musculus with 4 samples.

Results

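The genes described here carry out triglyceride assembly and supply its glycerol backbone. They were chosen as the rows of the 4 expression files whose RefSeq identifier maps to Gpd1, Gpam, Agpat2, Lpin1, Dgat1, Dgat2, Gpat3 or Pck1, with rows of one symbol summed. Of these 8 genes, 7 were measured, out of 13083 genes in all, and Pck1 was not analysed here. Each of the 7 was a single row in every sample.

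RNA-seq was performed on 4 stable lines of 3T3-L1, a murine preadipocyte line that turns into fat-storing cells under adipogenic hormones, with the aim of learning how CACUL1 affects adipogenesis. FLAG cells hold the empty FLAG vector and FLAG-CACUL1 cells the same vector with CACUL1, and both were selected with G418. sh-Luc cells hold a hairpin against luciferase and sh-CACUL1 cells a hairpin against CACUL1, and both were selected with hygromycin B. All lines were induced with rosiglitazone, a PPARγ agonist, at 5 µM, together with IBMX at 0.5 mM, insulin at 5 µg/ml and dexamethasone at 1 µg/ml, and RNA was taken on day 8. Each line gave 1 sample, so there are no replicates, no difference has a test, and a difference between lines cannot be told apart from a difference between cultures. The unit is FPKM, fragments per kilobase of transcript per 1000000 mapped fragments. Fold changes in the text are ratios of FPKM, and log2 fold changes are of FPKM + 1, which understates the change of low genes. A gene was called at 2-fold or more on the second scale. Intervals in parentheses are 95% intervals from the estimated number of fragments and cover counting error only.

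The depth, estimated from the steps between low values, was 14.4 in FLAG, 14.3 with FLAG-CACUL1, 23.9 under sh-Luc and 14.9 under sh-CACUL1, in units of 1000000 fragments. Cacul1 itself was at 9.61 FPKM in FLAG cells, 11.8 with FLAG-CACUL1, 10.2 under sh-Luc and 5.39 under sh-CACUL1. It was thus 1.90-fold lower (1.65 to 2.19) under its hairpin and 1.23-fold higher (1.08 to 1.39) with the FLAG construct, and both differences lie in the direction of the labels but below the 2-fold cut-off.

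Triglycerides are built on glycerol-3-phosphate, which adipocytes draw mainly from glycolysis through glycerol-3-phosphate dehydrogenase and from glyceroneogenesis, since they phosphorylate little free glycerol. Acyltransferases of the GPAT and AGPAT families add fatty acids to give lysophosphatidate and then phosphatidate, a lipin removes the phosphate to give diacylglycerol, and a DGAT adds the last fatty acid. Phosphatidate and diacylglycerol also feed phospholipid synthesis, and many enzymes of the route are induced as preadipocytes become adipocytes.

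The 7 genes were lower with CACUL1 overexpressed and higher with CACUL1 depleted. With CACUL1 overexpressed, 7 of 7 were at least 2-fold lower than in FLAG, against 7.22% of all genes. With CACUL1 depleted, 5 of 7 were at least 2-fold higher than in sh-Luc, against 4.95% of all genes, and the exceptions were Gpam and Dgat2. The median log2 fold change of the 7 was -2.78 in the first comparison, where the median of all genes was 0.09, and 2.34 in the second, where it was -0.30. The same 5 genes, Gpd1, Agpat2, Lpin1, Dgat1 and Gpat3, were called in both comparisons, as were 1.69% of all genes. All 10 adipocyte markers, among them Adipoq and Fabp4, were called lower under overexpression and called higher under depletion as well, with median log2 fold changes of -3.99 and 2.67, and their part in the result was not tested. In bulk RNA, fewer adipocytes cannot be told apart from less RNA of these genes per adipocyte. The levels behind these counts are plotted by sample.

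**Figure D1:**
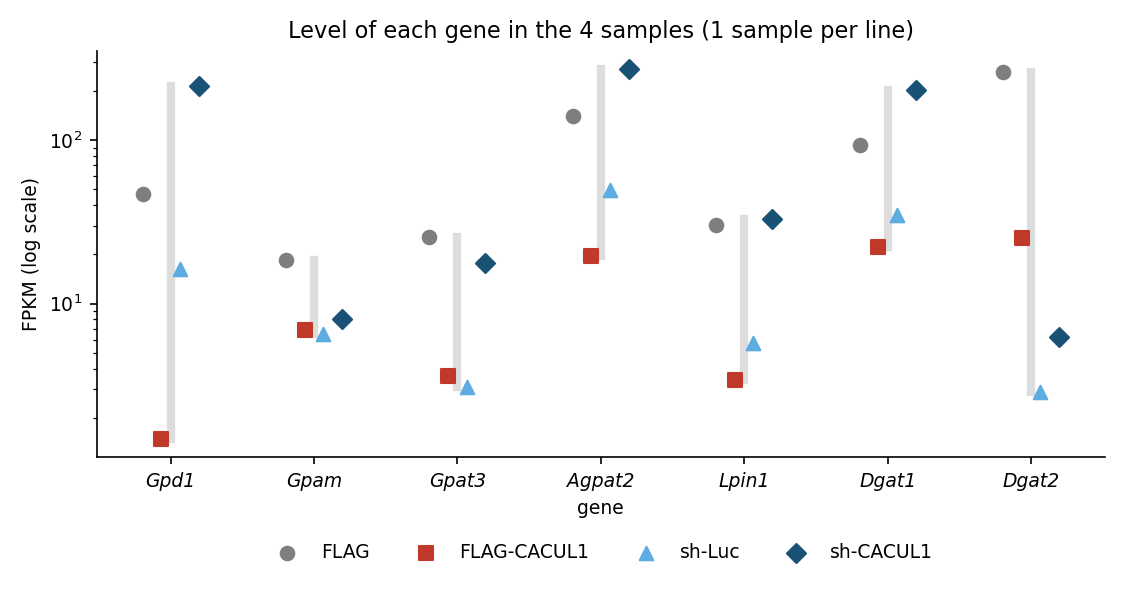
FPKM (log axis) of each measured gene in the 4 samples, 1 point per sample, with a grey bar from the lowest to the highest. FLAG-CACUL1 and sh-Luc both lie below FLAG and sh-CACUL1 for 6 genes, though for Gpam only FLAG stands apart. Dgat2 is instead higher in both FLAG-vector lines than in both hairpin lines.

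Upstream sequence is shown for Agpat2 and Lpin1, which moved in both comparisons, and for Gpam, which was called in the first comparison only. The windows are the 250 bases before a RefSeq transcription start on GRCm38.p6, printed 5′ to 3′ on the gene's own strand, and capitals mark a motif match on either strand. The Agpat2 window is chr2:26604418-26604667, the Lpin1 window is chr12:16610967-16611216 and the Gpam window is chr19:55127239-55127488, all on the minus strand and all outside the exons of GENCODE M21.
Agpat2: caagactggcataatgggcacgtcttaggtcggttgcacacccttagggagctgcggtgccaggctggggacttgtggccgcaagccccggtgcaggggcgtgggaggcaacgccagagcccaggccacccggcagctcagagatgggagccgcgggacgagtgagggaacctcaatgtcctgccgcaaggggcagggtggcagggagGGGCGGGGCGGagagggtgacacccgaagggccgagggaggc
Lpin1: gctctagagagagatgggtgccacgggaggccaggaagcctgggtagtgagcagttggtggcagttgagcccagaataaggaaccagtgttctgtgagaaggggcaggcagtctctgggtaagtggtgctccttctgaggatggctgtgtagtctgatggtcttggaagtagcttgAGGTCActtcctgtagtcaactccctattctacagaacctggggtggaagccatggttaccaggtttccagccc
Gpam: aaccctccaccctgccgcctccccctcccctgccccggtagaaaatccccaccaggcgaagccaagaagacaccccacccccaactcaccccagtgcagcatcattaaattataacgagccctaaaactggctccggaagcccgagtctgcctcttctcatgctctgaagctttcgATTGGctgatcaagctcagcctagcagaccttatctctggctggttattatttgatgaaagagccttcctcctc

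The motifs searched were AGGTCANAGGTCA, the direct repeat bound by PPARγ with its partner RXR, and its single half-site AGGTCA. The GC box (letters GGGCGG), the common start-site element TATAAA, the CCAAT box and the E-box (letters CACGTG) were searched as well, all on both strands. The half-site lies within the direct repeat, so a match to the repeat also counts as half-site matches. Agpat2 held 2 overlapping GC boxes, a motif found in 32.7% of all 32851 windows of this length. Lpin1 held 1 half-site, found in 14.0% of windows, and Gpam held 1 CCAAT box, found in 33.8%. A second Gpam window, at chr19:55099478-55099727, held 1 half-site and 1 GC box, and the Gpat3 window, at chr5:100845979-100846228 on the plus strand, held 3 GC boxes. Both lie inside the annotated gene, and GENCODE M21 exons cover 131 bases of the former and all 250 of the latter, so they are not printed. The direct repeat was in none of these 5 windows and in 0.0335% of all windows. TATAAA and the E-box, which 12.4% and 6.02% of windows held, were in none of the 5 either.

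The supply of glycerol-3-phosphate was represented by Gpd1, the cytosolic dehydrogenase that reduces the glycolytic intermediate dihydroxyacetone phosphate. Gpd1 (NM_010271, chr15:99717515-99725005, plus strand) was at 46.9 FPKM in FLAG cells, 1.49 with FLAG-CACUL1, 16.3 under sh-Luc and 213.2 under sh-CACUL1. The highest sample was 143.5-fold above the lowest, the widest span of the 7 genes. No 2 samples lay within counting error of each other. In FLAG-CACUL1 about 60.8 fragments lay on the gene, so its 31.5-fold deficit against FLAG had an interval from 24.4 to 41.2. The 13.1-fold excess of sh-CACUL1 over sh-Luc (12.3 to 13.9) rested on many more fragments. By rank, Gpd1 stood above 97.9% of genes in sh-CACUL1 and above only 22.5% in FLAG-CACUL1. An exon of Gpd1 overlaps Gm16537 on the other strand, and whether counting used strand is not given in the sources used here.

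Gpd1l, the paralog of Gpd1, did not take part in this range. Gpd1l was at 2.66 FPKM in FLAG cells, 2.80 with FLAG-CACUL1, 5.54 under sh-Luc and 7.64 under sh-CACUL1. Its log2 fold changes of 0.05 and 0.40 were below the cut-off, and the first changed sign with the scaling. Gpd1 therefore made up 94.6% of the summed FPKM of the pair in FLAG cells, 34.7% with FLAG-CACUL1, 74.7% under sh-Luc and 96.5% under sh-CACUL1. In FLAG-CACUL1 alone the paralog was the more abundant of the pair, by 1.89-fold (1.40 to 2.56).

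The first acylation is carried out by glycerol-3-phosphate acyltransferases, of which Gpam is a mitochondrial enzyme and Gpat3 an enzyme of the endoplasmic reticulum that is induced in adipogenesis. Gpam (NM_008149, chr19:55067268-55127238, minus strand) was at 18.5 FPKM in FLAG cells, 6.91 with FLAG-CACUL1, 6.54 under sh-Luc and 8.07 under sh-CACUL1. FLAG stood apart and the other three samples lay close together. Gpam was 2.68-fold lower (2.37 to 3.02) in FLAG-CACUL1 than in FLAG and in sh-CACUL1 it was 1.23-fold above sh-Luc (1.09 to 1.40). FLAG-CACUL1 exceeded sh-Luc by 1.06-fold, with an interval from 0.927 to 1.20, so counting error alone covers that gap. It had the narrowest range of the 7 genes, 2.83-fold.

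Gpat3 (NM_172715, chr5:100845713-100899102, plus strand) was at 25.4 FPKM in FLAG cells, 3.59 with FLAG-CACUL1, 3.07 under sh-Luc and 17.6 under sh-CACUL1. FLAG and sh-CACUL1 were high, and the low pair, FLAG-CACUL1 and sh-Luc, differed by 1.17-fold with an interval from 0.940 to 1.45. Against their own controls, FLAG-CACUL1 was 7.08-fold lower (5.95 to 8.46) and sh-CACUL1 was 5.73-fold higher (4.91 to 6.70). Of the gene's stretches of 31 bases, 6.20% also occur in Gm42987, which overlaps it on the same strand, so a part of its reads could have been split between them. Its exons also overlap 4930458D05Rik on the other strand. Compared per length, Gpat3 stood 1.37-fold above Gpam (1.26 to 1.498) in FLAG and 2.18-fold above it (1.94 to 2.45) in sh-CACUL1. In FLAG-CACUL1 and sh-Luc, Gpat3 was the lower of the pair, at ratios of 0.519 and 0.469.

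The third measured enzyme of this step, Gpat4, also of the endoplasmic reticulum, followed another course. Gpat2, also on the list of paralogs, was not measured and is not in the sum of the step. Gpat4 was at 23.7 FPKM in FLAG cells, 22.9 with FLAG-CACUL1, 26.1 under sh-Luc and 98.04 under sh-CACUL1. It differed between FLAG-CACUL1 and FLAG by a log2 fold change of -0.04, whose sign depended on the scaling, and exceeded its sh-Luc level in sh-CACUL1 by 1.87. Gpat4 thus made up 35.1% of the summed FPKM of the step in FLAG cells, 68.6% with FLAG-CACUL1, 73.1% under sh-Luc and 79.3% under sh-CACUL1. The Gpat3 share went from 37.6% in FLAG to 10.7% in FLAG-CACUL1, and from 8.60% in sh-Luc to 14.2% in sh-CACUL1. The Gpam share was 27.4%, 20.7%, 18.3% and 6.53% in the same order of samples. The step as a sum was 2.02-fold lower in FLAG-CACUL1 and 3.47-fold higher in sh-CACUL1 than in the own control.

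Agpat2 adds the second fatty acid, and its loss causes congenital generalized lipodystrophy in humans. Agpat2 (NM_026212, chr2:26593057-26604417, minus strand) was at 140.3 FPKM in FLAG cells, 19.6 with FLAG-CACUL1, 49.5 under sh-Luc and 271.3 under sh-CACUL1. The order of the samples was that of Gpd1, and each neighbour in it differed beyond counting error. FLAG-CACUL1 was 7.15-fold below FLAG (6.45 to 7.94) and sh-CACUL1 was 5.48-fold above sh-Luc (5.19 to 5.78). Egfl7 overlaps its exons on the other strand. Agpat2 made up 49.8% of the summed FPKM of Agpat1 to Agpat5 in FLAG cells, 15.3% with FLAG-CACUL1, 32.5% under sh-Luc and 69.0% under sh-CACUL1.

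The paralogs of Agpat2 varied little beside it. Agpat1 was at 50.0 FPKM in FLAG cells, 45.8 with FLAG-CACUL1, 39.5 under sh-Luc and 47.4 under sh-CACUL1, with log2 fold changes of -0.12 and 0.26. Agpat3 and Agpat4 were also below the cut-off in both comparisons as deposited. Agpat5, at 21.6, 8.41, 7.22 and 9.30 FPKM in the same order, was the exception, with log2 fold changes of -1.27 and 0.33 and its highest level in FLAG, as for Gpam. Agpat2 stood 2.80-fold above Agpat1 (2.64 to 2.99) in FLAG and 5.72-fold above it (5.40 to 6.06) in sh-CACUL1, while in FLAG-CACUL1 its level was 0.428 of that of Agpat1 (0.383 to 0.478).

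Lpin1 encodes lipin 1, the phosphatidate phosphatase whose loss underlies the lipodystrophic fld mouse. Lpin1 (NM_015763, NM_001130412 and NM_172950 in one row, chr12:16535669-16610966, minus strand) was at 30.1 FPKM in FLAG cells, 3.40 with FLAG-CACUL1, 5.72 under sh-Luc and 33.1 under sh-CACUL1. The high pair, FLAG and sh-CACUL1, lay only 1.10-fold apart (1.04 to 1.17). FLAG-CACUL1 was 8.83-fold lower than FLAG (7.68 to 10.2) and sh-CACUL1 was 5.79-fold higher than sh-Luc (5.30 to 6.34). The row joins transcripts of different splicing, so the levels do not separate the isoforms.

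Among the lipins only Lpin1 was called in both comparisons. Lpin2 had log2 fold changes of -0.28 and -0.40, the second of which changed sign with the scaling. Lpin3, a lowly expressed gene here at 2.03, 0.871, 2.65 and 0.355 FPKM, had -0.70 and -1.43. Lpin1 was 71.9% of the summed FPKM of the lipins in FLAG cells, 28.0% with FLAG-CACUL1, 38.7% under sh-Luc and 86.9% under sh-CACUL1. Lpin2 was the most abundant lipin in FLAG-CACUL1, at 64.8%, and in sh-Luc, at 43.4%.

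The last acylation is shared by Dgat1 and Dgat2, enzymes that are unrelated in sequence. Dgat1 (NM_010046, chr15:76502015-76511953, minus strand) was at 93.3 FPKM in FLAG cells, 22.1 with FLAG-CACUL1, 35.0 under sh-Luc and 201.7 under sh-CACUL1. It kept the order seen in Gpd1, Agpat2 and Lpin1, with every neighbour apart beyond counting error. Against the own control, FLAG-CACUL1 was 4.22-fold lower (3.86 to 4.62) and sh-CACUL1 was 5.77-fold higher (5.46 to 6.10).

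Dgat2 (NM_026384, chr7:99153658-99182719, minus strand) was at 260.5 FPKM in FLAG cells, 25.1 with FLAG-CACUL1, 2.86 under sh-Luc and 6.24 under sh-CACUL1. Both FLAG-vector lines were above both hairpin lines, a pattern of 17.3% of all genes and of no other of the 7. FLAG-CACUL1 was 10.4-fold lower than FLAG (9.64 to 11.2). The 2.18-fold excess of sh-CACUL1 over sh-Luc (1.76 to 2.69) was a log2 fold change of 0.91 with 1 FPKM added, just below the cut-off, and it passed the cut-off with a pseudocount of 0.1 and under every other scaling tried. The control lines themselves differed by 91.2-fold (77.6 to 107.3), which placed Dgat2 above 99.9% of genes in the comparison of FLAG with sh-Luc. This gap between controls exceeded both differences from the own control.

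The ratio of the DGAT genes changed accordingly. Dgat2 stood 2.79-fold above Dgat1 (2.67 to 2.92) in FLAG and 1.14-fold above it (1.02 to 1.27) in FLAG-CACUL1. Dgat1 was instead the more abundant by 12.2-fold (10.3 to 14.5) in sh-Luc and by 32.3-fold (28.2 to 37.4) in sh-CACUL1. Dgat2 was 73.6%, 53.2%, 7.56% and 3.00% of the summed FPKM of the pair in the same order of samples. The sum was 353.8 FPKM in FLAG cells, 47.3 with FLAG-CACUL1, 37.8 under sh-Luc and 207.9 under sh-CACUL1, so it was 7.49-fold lower and 5.50-fold higher than in the own control.

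**Figure D2:**
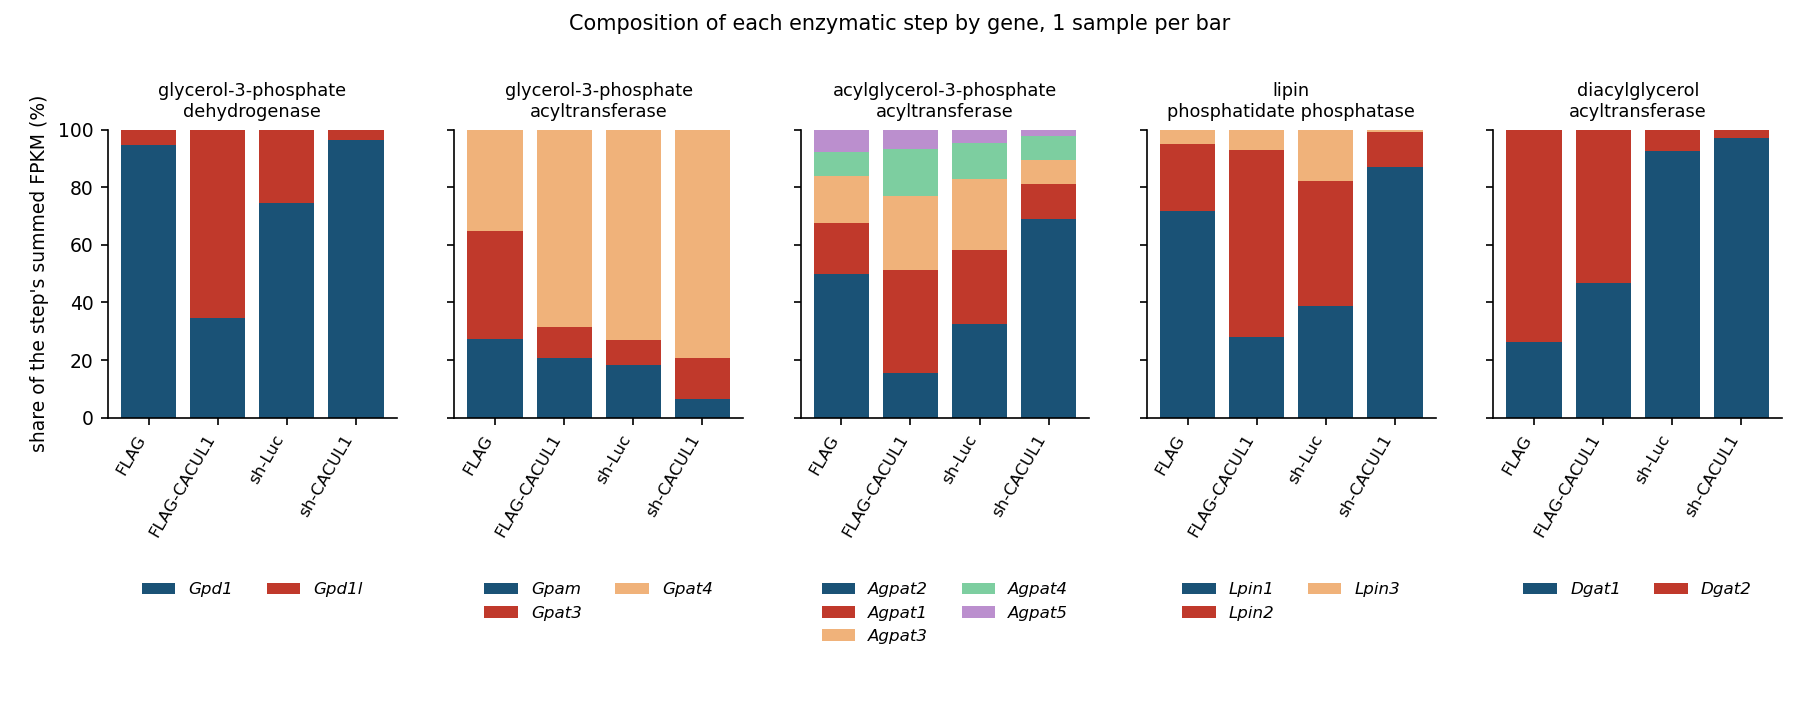
Share of each step's summed FPKM (percent) contributed by each gene in the 4 samples, 1 sample per bar. Gpd1, Agpat2 and Lpin1 take their largest shares in FLAG and sh-CACUL1, Gpat4 takes 68.6% to 79.3% of its step in all samples but FLAG, and Dgat2 falls to 3.00% in sh-CACUL1.

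The control lines also differed from each other in these genes. FLAG exceeded sh-Luc by at least 2-fold in 7 of 7, against 8.58% of all genes, and apart from Dgat2 the excess ran from 2.67-fold for Dgat1 to 8.28-fold for Gpat3. FLAG-CACUL1 and sh-Luc were both below FLAG and sh-CACUL1 for 6 of the 7, all but Dgat2, as for 9.93% of all genes. Each overexpressing or depleted line was therefore also set beside the control with the other vector, a comparison that shares its samples with those above and differs in vector and selection. FLAG-CACUL1 was at least 2-fold below sh-Luc in Gpd1 and Agpat2, with log2 fold changes of -2.80 and -1.29, and above it in Dgat2, at 2.76, where 4.87% and 5.04% of all genes were called. Gpam, Gpat3, Lpin1 and Dgat1 lay between -0.64 and 0.17. sh-CACUL1 was at least 2-fold above FLAG in Gpd1 and Dgat1, at 2.16 and 1.10, and below it in Gpam and Dgat2, at -1.10 and -5.18, where 7.45% and 15.4% of all genes were called. Agpat2 was at 0.95, Lpin1 at 0.14 and Gpat3 at -0.51. On the deposited scale, Gpd1 was thus the only gene of the 7 that was called in the same direction against both controls in both lines. Agpat2 fell just short of this in sh-CACUL1, and other scalings were not tried with the control of the other vector.

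**Figure D3:**
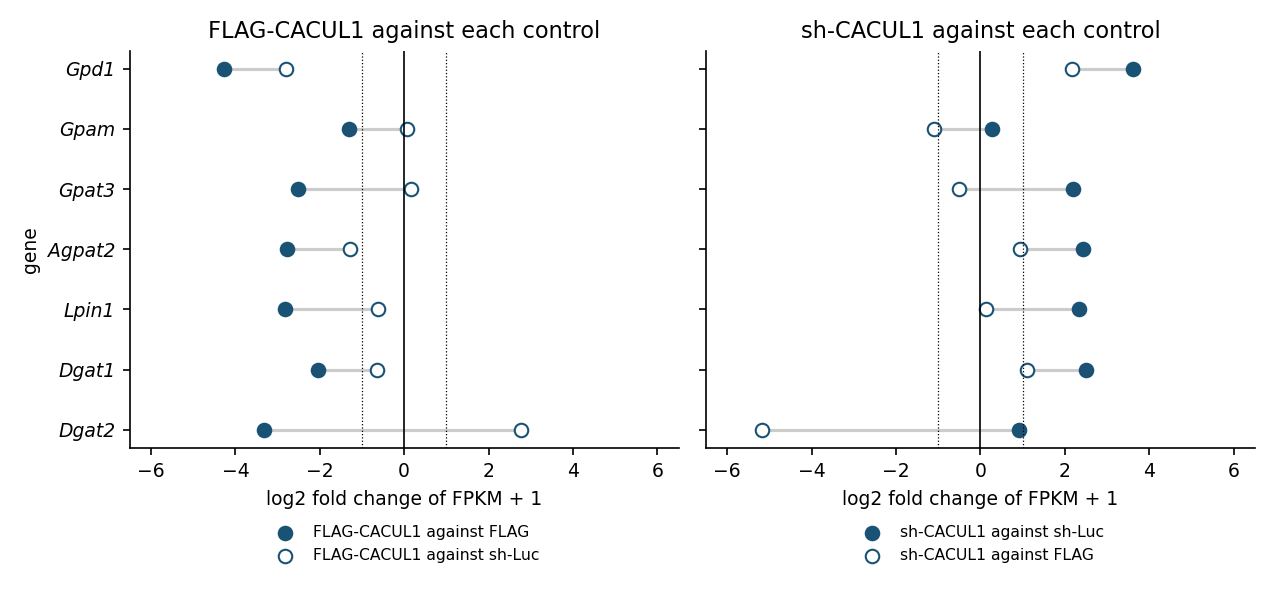
Log2 fold change of FPKM + 1 of each gene in FLAG-CACUL1 (left) and sh-CACUL1 (right), against the control with the same vector (filled) and the control with the other vector (open), with dotted lines at 2-fold. All filled points are left of 0 for FLAG-CACUL1 and right of 0 for sh-CACUL1, while the open points lie on both sides.

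The 7 genes did not move as one. Agpat2 and Dgat1 had the most similar profiles, with a Euclidean distance of 0.586 between their centred log2(FPKM + 1) values over the 4 samples. Lpin1 lay at 0.750 from both Gpat3 and Agpat2. The most distant pair was Gpd1 and Dgat2, at 6.76. Neighbours were ranked only among genes outside the gene lists used here, so a paralog or a marker such as Pparg could lie nearer. Among those 10745 genes with a mean of at least 1 FPKM, Klf15 was nearest to the mean profile of the 7. Klf15 is a transcription factor of adipocyte metabolism and lay at a distance of 0.279. Klf15 was at 5.56 FPKM in FLAG cells, 0.190 with FLAG-CACUL1, 0.319 under sh-Luc and 3.71 under sh-CACUL1. Its low values are below the added 1 FPKM, so its distance depends on that pseudocount, and no other was tried for this ranking. Next came Angptl4, a secreted inhibitor of lipoprotein lipase, at 0.377, then 6430571L13Rik, Ppp1r3c, a glycogen-targeting subunit of protein phosphatase 1, and 1190005I06Rik.

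Nearest to single genes, by the same distance and again with all listed genes left out, paralogs included, were genes of several kinds. Gpd1 was closest to Adig (0.853), the small adipocyte protein adipogenin, then to Fam83a and S100a1. For Agpat2 they were Reep6 (0.198) and Paqr4, and for Lpin1 Vsir (0.311), Arxes2 and A530016L24Rik. Dgat1 was followed most closely by Tmcc3 (0.246), by Cd36, the fatty acid translocase, and by Cers4, a ceramide synthase. Gpat3 lay nearest to 6430571L13Rik (0.259), Klf15 and Ramp2. Gpam was closest to Zbtb18 (0.0950) and Slc26a6, and Dgat2, whose neighbours were the farthest after those of Gpd1, to Ankrd37 (0.637), Stbd1 and Prelid2. Stbd1, which binds glycogen, was at 60.6 FPKM in FLAG and 3.996 with FLAG-CACUL1 but at 0.0879 and 0.0701 in the hairpin lines sh-Luc and sh-CACUL1.

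The paralogs as a list were less affected than the 7 genes. Of 10 measured paralogs, 2 were called lower with FLAG-CACUL1, Agpat5 and Pck2, and none higher. In sh-CACUL1, Gpat4 was higher and Lclat1 and Lpin3 were lower, at log2 fold changes of 1.87, -1.06 and -1.43 as deposited. Of all genes, 7.22% were called lower in FLAG-CACUL1, and 4.95% higher and 16.4% lower in sh-CACUL1. Under every other scaling Lclat1 was no longer called, and Agpat4, at 0.73 as deposited, reached as much as 1.18. No paralog was called in both comparisons on the deposited scale. The list median was -0.37 and 0.06. Pck2, the mitochondrial phosphoenolpyruvate carboxykinase, was at 54.7 FPKM in FLAG cells, 24.3 with FLAG-CACUL1, 22.9 under sh-Luc and 20.6 under sh-CACUL1. It was high in FLAG alone, as Gpam was.

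Among 11 other genes of glycerol handling and glyceroneogenesis, 3 were called lower in FLAG-CACUL1 and the same 3 higher in sh-CACUL1. They were Pcx, pyruvate carboxylase, which provides oxaloacetate for glyceroneogenesis, Aqp7, the glycerol channel of adipocytes, and Mdh1, the cytosolic malate dehydrogenase. Both calls were held by 1.69% of all genes. Pcx was at 216.0 FPKM in FLAG cells, 29.8 with FLAG-CACUL1, 84.3 under sh-Luc and 349.5 under sh-CACUL1, in the order of Agpat2. Aqp7 was at 6.06, 0.174, 1.36 and 6.90 FPKM and Mdh1 at 112.3, 50.5, 110.5 and 321.2 FPKM in the same order of samples. Gk, glycerol kinase, was at 1.15, 0.440, 1.02 and 3.46 FPKM. It was called higher in sh-CACUL1, at 1.14 on the log2 scale, while its -0.58 in FLAG-CACUL1 was below the cut-off. At these low levels, about 70.3 fragments in FLAG and 26.9 in FLAG-CACUL1, the pseudocount understates its change. Pdk4, an inhibitor of pyruvate dehydrogenase, was the 1 gene of this list called lower in sh-CACUL1, against 16.4% of all genes. Its level was 12.6 FPKM in sh-Luc and 1.36 in sh-CACUL1, a log2 fold change of -2.53. The transaminases Got1 and Got2 were below the cut-off in both comparisons. So, as deposited, were the mitochondrial Mdh2 and Gpd2 and the enzymes that deliver dihydroxyacetone phosphate, Tpi1 and Aldoa. Other scalings took Tpi1 and Aldoa past it in FLAG-CACUL1, to as low as -1.09 and -1.01, and Gpd2 and Mdh2 in sh-CACUL1, to as high as 1.33 and 1.06.

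Neither the other phosphatidate phosphatases nor most phospholipid genes were called as the 7 genes were. Of 5 phosphatidate phosphatases outside the lipins and lipin regulators, none was called in FLAG-CACUL1 and none was called higher in sh-CACUL1. Plpp1 and Plpp2, lipid phosphate phosphatases of the membrane, were called lower in sh-CACUL1, at -1.68 and -2.54, where 16.4% of all genes were. Ctdnep1 and Cnep1r1, which together dephosphorylate lipins, were below the cut-off throughout. Of 18 phospholipid genes, Pcyt2 and Pemt were called lower in FLAG-CACUL1 and higher in sh-CACUL1, as were 1.69% of all genes. Pgs1 was called higher in FLAG-CACUL1, at 1.05, as were 7.51% of all genes. The FLAG-CACUL1 values of Pemt and Pgs1 lay near the cut-off and fell short of it under some scalings, at -0.89 and 0.88. Pcyt2, the rate-limiting enzyme of phosphatidylethanolamine synthesis from ethanolamine, was at 25.7 FPKM in FLAG cells, 9.08 with FLAG-CACUL1, 13.3 under sh-Luc and 89.3 under sh-CACUL1. Pcyt1a, its counterpart for choline, had log2 fold changes of 0.86 and -1.44, opposite in sign to Pcyt2. Pcyt1b was also called lower, at -1.27, and Crls1 higher, at 1.03, in sh-CACUL1 alone.

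The peroxisomal route, which starts from dihydroxyacetone phosphate and leads mainly to ether lipids, had 2 of 3 genes called in both comparisons. The share of all genes lower in the first and higher in the second was 1.69%. Gnpat, which acylates dihydroxyacetone phosphate, was at 32.2 FPKM in FLAG cells, 10.6 with FLAG-CACUL1, 30.5 under sh-Luc and 80.8 under sh-CACUL1. Dhrs7b, the reductase whose product enters phosphatidate synthesis, was at 25.7, 12.3, 19.0 and 94.1 FPKM in that order. Its log2 fold change of -1.01 in FLAG-CACUL1 lay at the cut-off, and scaling to the housekeeping genes left only 1 of the 3 called there. Agps, the ether-forming enzyme, had 0.30 and -0.11.

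**Figure D4:**
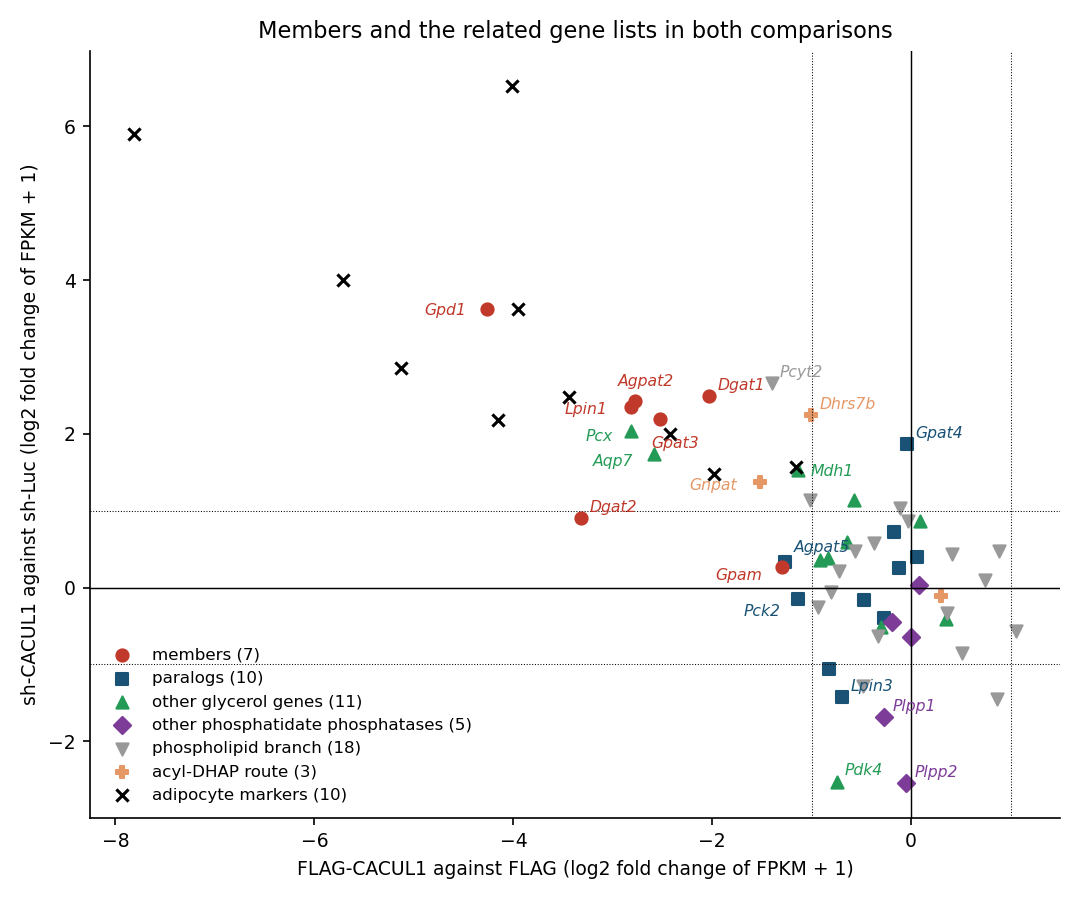
Log2 fold change of FPKM + 1 in FLAG-CACUL1 against FLAG (horizontal) and in sh-CACUL1 against sh-Luc (vertical), 1 point per gene, with dotted lines at 2-fold and the number of measured genes of each list in the key. Members, Pcx, Aqp7 and the adipocyte markers spread to the upper left, whereas most paralogs and phospholipid genes stay near the centre.

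Cell type markers were set beside these genes. The summed level of the 10 adipocyte markers was 8541 FPKM in FLAG cells, 892 with FLAG-CACUL1, 1721 under sh-Luc and 17818 under sh-CACUL1, with single genes from 0.192 to 12543 FPKM. The summed level of the 7 genes was 614.9, 82.3, 119 and 751.2 FPKM. Fabp4 made up most of the marker sum in FLAG, sh-Luc and sh-CACUL1, at 4991, 1020 and 12543 FPKM, but not in FLAG-CACUL1, at 320 FPKM. In order of level the samples of the marker sum ran FLAG-CACUL1, sh-Luc, FLAG and sh-CACUL1, as they did for Gpd1, Agpat2, Lpin1 and Dgat1. Of the single markers, Adipoq, Fabp4, Cidec, Lipe and Cfd kept this order and the others did not. Lpl and Cebpa ran sh-Luc, FLAG-CACUL1, sh-CACUL1 and FLAG instead, as did Gpam and Gpat3. Plin1 and Pparg were highest in FLAG, at 158.2 and 70.1 FPKM against 113.4 and 61.8 in sh-CACUL1. Retn was lowest in sh-Luc, at 0.192 FPKM against 1.34 in FLAG-CACUL1. Of 10 preadipocyte and fibroblast markers, 7 were called higher in FLAG-CACUL1 and 7 lower in sh-CACUL1, against 7.51% and 16.4% of all genes. The sum of these markers was 6383, 10419, 4594 and 939 FPKM. Dlk1, a preadipocyte marker, went against them, at 97.2, 39.4, 0.220 and 21.2 FPKM, and was, like Dgat2, far higher in FLAG than in sh-Luc. Thy1, at 42.4, 144.2, 0.663 and 34.3 FPKM, was called higher in both comparisons and so went against them in sh-CACUL1. Dlk1 and Thy1 were the markers of this list called higher in sh-CACUL1, as were 4.95% of all genes. No marker was listed at 0, but neither was any other deposited row, so this does not show that every marker was expressed. Some markers had no row: 6 of 11 markers of other cell types and 10 of 11 preadipocyte and fibroblast markers were measured. Among markers of other cell types, Cd68, of macrophages, was at 16.2 FPKM in FLAG and between 0.962 and 1.44 elsewhere, and Pecam1, of endothelium, was at or below 0.301 throughout. As deposited, 1 of the 6 was called higher and 1 lower in FLAG-CACUL1, against 7.51% and 7.22% of all genes. In sh-CACUL1, 1 was called higher and 3 lower, against 4.95% and 16.4%. Sox9 had log2 fold changes of 1.42 and -2.39, and Runx2, Krt8 and Des had -1.13, -1.70 and 1.24 in sh-CACUL1. The part of these markers in the results was not tested. Gapdh, the glycolytic enzyme often used as a reference gene, was at 9160 FPKM in FLAG and between 1342 and 1851 FPKM in the other samples, so FLAG stood apart in more than the lipid genes, and the part of this in the results was likewise not tested.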

How the data were processed

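The RNA-seq data comprised 1 sample from each of 4 stable 3T3-L1 lines, taken on day 8. The authors deposited FPKM values for 13110 rows of RefSeq transcripts per sample, none at 0, and a company made and sequenced the mRNA libraries and selected changed genes at 2-fold. The submitters' processing notes name mm10. The aligner, the quantifying program, strandedness, any filter on low values and normalization between samples are not given in the sources used here.

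Rows were joined to symbols through GENCODE M21 (GRCm38) and, for 149 rows that it lacks, RefSeq on GRCm38.p6. No symbol was found for 47 rows, 8 rows had several, and 54 rows shared a symbol with another and were summed. This left 13083 genes. Log2 fold changes used a pseudocount of 1 FPKM and no filter, and each line was compared with the control of its own vector. A call was 2-fold or more, and no test was made.

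Fragments were estimated from the spacing of FPKM times length in 4241 rows of one transcript of at least 3000 bases, and 95% Clopper-Pearson intervals of the ratio were taken from them. Precision is therefore approximate. Coordinates are those of GENCODE M21. Upstream windows came from RefSeq, which matched 4 of the genes with 5 windows. Gpd1, Dgat1 and Dgat2 had no entry.

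All members were to be named, with any gene of the fixed lists and, outside these, the 5 genes nearest to the mean member profile and the 3 nearest to each member. Some of these nearest genes are not reported here. Members and lists were chosen with earlier results of these data known. Alternatives were other pseudocounts, quantile, median-of-ratios, TPM and housekeeping scaling, the other control, the highest row in place of the sum, a 3-fold cut-off and a minimum of 1 FPKM in all samples. The scripts were tested on simulated data. Python 3.11.15, numpy 2.4.6, scipy 1.17.1, pandas 2.3.3 and matplotlib 3.10.9 were used.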

Additional observations from a re-analysis of the deposited data

Results flagged for a closer look

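Thy1, a surface marker of fibroblasts and preadipocytes that was listed as a marker and is not one of the triglyceride genes, is given because it did not move in opposite directions in the 2 comparisons, unlike the rest of the 10 markers of its list as deposited. Ly6a and Col1a1 of that list also lost their opposite signs under some scalings, since Ly6a in sh-CACUL1 ran from -0.18 to 0.27 and Col1a1 in FLAG-CACUL1 from -0.17 to 0.14 on the log2 scale. Thy1 was at 42.4 FPKM in FLAG cells, 144.2 with FLAG-CACUL1, 0.663 under sh-Luc and 34.3 under sh-CACUL1. On the log2 scale it differed by 1.74 in FLAG-CACUL1 against FLAG and by 4.41 in sh-CACUL1 against sh-Luc. With 1 sample per line the difference was not tested.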

How the results depend on the processing

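No paired analysis was possible because each line gave 1 sample. Every gene of the 7 stayed below its FLAG level with FLAG-CACUL1, and above its sh-Luc level with sh-CACUL1, under each alternative that kept the control of the same vector, and Gpam stayed below 2-fold in sh-CACUL1 under all of these, from 0.27 to 0.73. The calls of Gpd1, Agpat2, Lpin1, Dgat1 and Gpat3 held at 2-fold, and a 3-fold cut-off left 6 lower and 5 higher. Dgat2 in sh-CACUL1 ran from 0.91 to 1.32 on the log2 scale. The median log2 fold change of the 7 in FLAG-CACUL1, -2.78, was -2.93 with median-of-ratios scaling, -2.64 with housekeeping scaling and -2.95 with housekeeping scaling without Gapdh, an alternative chosen after seeing the data. In sh-CACUL1, where it was 2.34, it was 2.48 with a pseudocount of 0.1, 2.52 without one, 2.66 with quantile normalization, 2.75 with median-of-ratios scaling, 2.60 in TPM, 2.73 with housekeeping scaling and 2.78 without Gapdh.

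With the control of the other vector the medians were -0.61 and 0.14. FLAG-CACUL1 then had 2 genes lower and 1 higher, and sh-CACUL1 had 2 lower and 2 higher. Gpam at 0.0695, Dgat2 at 2.76 and Gpat3 at 0.17 turned positive in FLAG-CACUL1 and Gpat3 at -0.51 turned negative in sh-CACUL1, where Gpam at -1.10 and Dgat2 at -5.18 were also below 0. These comparisons put another sample in place of the control. Which control is the better baseline was not tested.

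The share of all genes called depended more on the scaling. In sh-CACUL1 647 genes were higher and 2140 lower as deposited, but 1186 and 1016 with median-of-ratios scaling, 1179 and 1084 with quantile normalization, 1150 and 1161 with housekeeping scaling, and 1038 and 2051 in TPM. A pseudocount of 0.1 gave 1084 and 3077, and none 1273 and 3298. The median log2 fold change of all genes, -0.30 as deposited, lay between -0.03 and 0.01 under quantile, median-of-ratios and housekeeping scaling, so values in sh-CACUL1 are about that much higher there. In FLAG-CACUL1 982 were higher and 945 lower, against 735 and 1187 with median-of-ratios scaling, 683 and 1215 with housekeeping scaling without Gapdh, 1225 and 763 with Gapdh, and 2006 and 1489 without a pseudocount. A 3-fold cut-off gave 283 higher and 380 lower in FLAG-CACUL1 and 252 and 684 in sh-CACUL1. Depth limits Gpd1 in FLAG-CACUL1 most, at about 60.8 fragments, and Dgat2 in sh-Luc had about 155 fragments.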
